A study of Mus musculus with 8 samples.

Results

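The 7 class II antigen presentation genes *H2-Aa*, *H2-Ab1*, *H2-Eb1*, *H2-DMa*, *H2-DMb1*, *Cd74* and *Ciita* were taken by symbol from the 23282 rows of the liver count files, and each had 1 row. Liver RNA came from C57BL/6 mice that were 4 weeks old and male by their labels. Mice of the control group received saline, mice of the endotoxemic group received 25 mg/kg lipopolysaccharide (LPS), the endotoxin of gram-negative bacteria, and mice of the LGK974 group received 60 mg/kg LGK974, a Wnt signaling inhibitor, and 25 mg/kg LPS. The labels of the LGK974 group name LGK974 alone. The paper is the source for its dose and for the LPS, and also for the collection of livers 6 h after LPS and the injection of LGK974 2 h before LPS in most experiments. No group received LGK974 without LPS.

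Class II molecules present peptides from the endosomal pathway to CD4+ T cells. An alpha and a beta chain, such as those of *H2-Aa* with *H2-Ab1*, form the peptide-binding dimer, and the invariant chain *Cd74* blocks its groove until lysosomal proteases cut it. *H2-DMa* and *H2-DMb1* encode the exchange factor that swaps the last invariant chain fragment for peptide. *Ciita* encodes the transactivator that is recruited to class II promoters through factors on the X and Y boxes, and interferon-γ is its best-known inducer outside professional antigen-presenting cells. In liver, Kupffer cells, dendritic cells and B cells are the main class II bearing cells, and in a bulk sample fewer cells of a type and less RNA per cell cannot be told apart.

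Of the 8 libraries, numbers 3 and 4 of the endotoxemic group were identical on every row to numbers 1 and 2 and were not used again, so that n = 2 in each of the 3 groups. Total counts ranged from 9142116 to 15222439, so that the smallest signal taken as shown, 3 counts, stood for 0.197 to 0.328 CPM (counts scaled to a total of 1e6). This floor allows for counting error alone. Sex-linked transcripts separated the LGK974 libraries from the other 4, and it was the other 4, of the control and endotoxemic groups, that went against the male label. *Xist*, which is transcribed from the inactive X chromosome of female cells, had 1171 to 3115 counts in those 4 libraries and 3 and 7 counts in the LGK974 libraries, while the Y-linked *Ddx3y* had 0 counts in those 4 and 1755 and 1392 with LGK974. Every comparison of the LGK974 group therefore also compares these 2 kinds of library, and drug and sex cannot be told apart. The labels do not say whether libraries of a group came from separate mice, so that p-values measure the spread between these libraries.

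The rows follow gene order along the chromosomes, and 579 rows bear a symbol whose gene lies over 2 Mb away from those around it. Of the class II genes, 6 stood between their genomic neighbours. *H2-DMa*, *H2-DMb1*, *H2-Ab1*, *H2-Aa* and *H2-Eb1* lie in this order on chromosome 17 of GRCm38 within the span from 34119541 to 34316674, and their rows followed in the same order. *Cd74* (chromosome 18, 60803848 to 60812652) stood between *Rps14* and *Tcof1* of the same chromosome. *Ciita* (chromosome 16, 10480059 to 10528418) was flagged, since its row stood between *Smim20* and *Cckar*, both of chromosome 5.

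The promoters are shown because the class II genes share a regulatory module and their levels are described together. RefSeq promoters on GRCm38.p6, from 250 bases before to 50 after a start site, were found for 4 of the 7 genes, *H2-Aa*, *H2-Eb1*, *H2-DMa* and *H2-DMb1*. Both strands were searched for the core of the X box, which binds the RFX complex and whose matches are the first capitals below, and for GATTGG as the core of the Y box, which binds NF-Y. In the sequences below, read 5′ to 3′ on the strand of the gene, capitals mark the X box core and then the Y box core.

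H2-Eb1, chr17:34305763-34305822, + strand: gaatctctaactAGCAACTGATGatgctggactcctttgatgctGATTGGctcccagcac

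H2-DMb1, chr17:34153084-34153144, + strand: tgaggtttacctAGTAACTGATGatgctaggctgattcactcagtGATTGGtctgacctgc

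H2-Aa, chr17:34287857-34287915, - strand, Y box core alone: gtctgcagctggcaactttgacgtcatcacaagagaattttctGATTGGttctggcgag

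In *H2-Eb1* the Y box core began 60 bases before the start site and 21 bases after the end of the X box core. A second Y box core lay on the opposite strand, 35 bases before the start site. *H2-DMb1* had the same arrangement, with the Y box core 62 bases before the start site and 22 bases between the cores. The letters of the X box core were not in the *H2-Aa* window, where the Y box core began 49 bases before the start site. *H2-DMa* had no X box core at either of its start sites and a Y box core at the second, 199 bases before it. Of all 32851 promoter windows of the same length, 0.968% held the X box core, 16.1% the Y box core, and 0.0122%, or 4 windows, held both in this order with at most 30 bases between them. Those 4 belong to *H2-Eb1*, *H2-DMb1*, the class II gene *H2-Eb2* and *Hnrnpa1*. The limit of 30 bases was set after these sequences had been read. An NF-κB motif was also searched for, and since 50.8% of all windows held it, it is not described further.

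To ask whether endotoxemia changed class II transcripts in the liver, the endotoxemic group was compared with the control group. The classical chains, the invariant chain and the exchange factor had fold changes of 0.737 to 1.35, and 0 of the 6 genes on rows in order passed edgeR's quasi-likelihood test at a Benjamini-Hochberg adjusted p below 0.05. Of the 12701 genes tested, 20.4% were called higher and 23% lower in this comparison. The groups did not overlap in 2 of the 6 genes, *H2-Ab1* and *H2-DMa*, and in 77.1% of all genes. The count at an unadjusted p below 0.05 was also 0 of 6 with edgeR, where 51.3% of all genes passed that level, and DESeq2 and limma-voom called 0 of 6 as well. The median log2 fold change of the 6 genes was 0.09, and that of all genes tested was 0.01. Summed over the 6 genes, the level was 111 and 112 TMM-normalized CPM after saline and 120 and 118 after LPS.

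*H2-Aa*, the alpha chain of the I-A molecule, had 44.5 and 35.4 TMM-normalized CPM after saline, 37.5 and 30.1 after LPS, and 22.2 and 14.9 after LGK974 with LPS. The control and endotoxemic libraries overlapped, and both LGK974 libraries lay below all others. Its log2 fold change in endotoxemia relative to the control group was -0.24 (SE 0.26, edgeR adjusted p = 0.479), with a 95% interval from 0.568-fold to 1.26-fold. *H2-Ab1*, the I-A beta chain, had 20.9 and 23.6 CPM after saline, 30 and 29.4 after LPS, and 17.5 and 17.7 after LGK974 with LPS. These 3 groups did not overlap, with the endotoxemic group highest and the LGK974 group lowest. Even so, the difference between the endotoxemic and control groups did not pass the test, at 0.41 on the log2 scale (SE 0.21, edgeR adjusted p = 0.138) and an interval from 0.962-fold to 1.85-fold. When the identical libraries were counted as separate samples, this difference passed (edgeR adjusted p = 0.0114; 0.0114 to 0.445 over all alternatives). *H2-Eb1*, the I-E beta chain, had 18.2 and 21.7 CPM after saline, 17.4 and 18.5 after LPS, and 11.5 and 6.76 after LGK974 with LPS. Its control and endotoxemic libraries overlapped (log2 fold change -0.15, SE 0.29, edgeR adjusted p = 0.705). The I-E alpha chain is a pseudogene in C57BL/6 mice, so that this beta chain has no partner at the cell surface.

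*Cd74*, the invariant chain, had 17.9 and 26 TMM-normalized CPM after saline, 25.1 and 34.4 after LPS, and 27.7 and 16.5 after LGK974 with LPS. All 3 groups overlapped. Its log2 fold change in the endotoxemic group was 0.43 (SE 0.31, edgeR adjusted p = 0.289), with an interval from 0.828-fold to 2.21-fold. *H2-DMa* had between 18 and 54 counts in a library, the lowest of the genes on rows in order, and 3.34 and 3.53 CPM after saline, 1.96 and 3.09 after LPS, and 2.56 and 2.03 after LGK974 with LPS. Both control libraries were above the other 4, but the interval of the difference between the endotoxemic and control groups ran from 0.35-fold to 1.55-fold. In the GENCODE annotation, *H2-DMa* shares 360 exonic bases with *Brd2* on the opposite strand, and whether reads were counted by strand is not given in the sources used here. *H2-DMb1* varied more within groups than between them. It had 6.49 and 1.96 CPM after saline, 7.74 and 2.66 after LPS, and 4.53 and 2.03 after LGK974 with LPS, so that in every group library 1 was above library 2. At this spread its interval, from 0.421-fold to 3.7-fold, leaves room for a change of either sign. *H2-DMb2*, its near-identical neighbour, had 0 to 3 counts, and reads that match both could have been split between them.

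**Figure D1:**
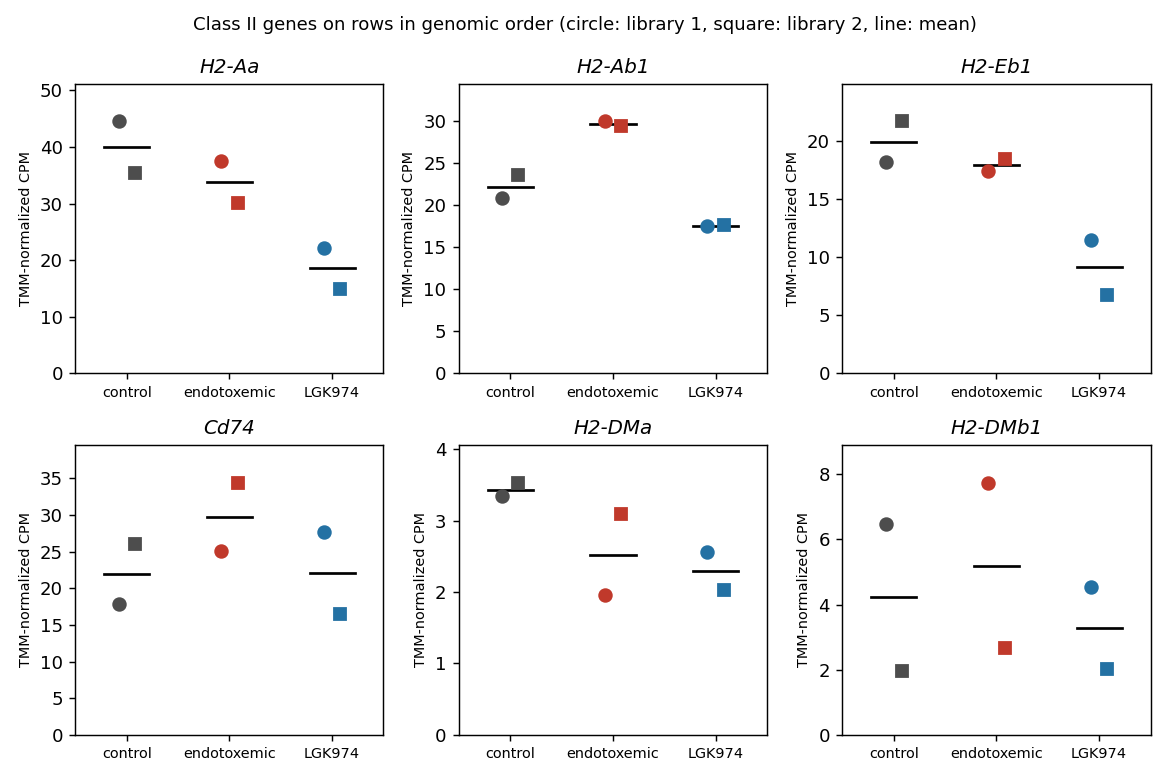
TMM-normalized CPM (vertical axis, from 0) of the 6 class II genes on rows in genomic order, for the control, endotoxemic and LGK974 groups; circles are library 1, squares library 2 and lines the means of 2 libraries. *H2-Aa* and *H2-Eb1* are lowest in both LGK974 libraries, whereas *Cd74* overlaps across groups and *H2-DMb1* is higher in library 1 of each group.

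*Ciita* was the exception under its symbol as deposited, and the row position bears on it directly. The symbol had 3 and 2 counts after saline, 135 and 114 after LPS, and 187 and 137 after LGK974 with LPS. As deposited it was called higher in the endotoxemic group (log2 fold change 6.04, SE 0.5, edgeR adjusted p = 2.42e-05) and in the LGK974 group (5.84, SE 0.5, edgeR adjusted p = 3.65e-05) compared with the control group. These fold changes rest on control counts at or below the floor and depend on the prior count of the fit. The row at the genomic place of *Ciita*, between *Tvp23a* and *Dexi* on chromosome 16, carried the symbol *Bmp6* and had 0 and 1 counts after saline, 5 and 5 after LPS and 3 and 5 after LGK974 with LPS.

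Conversely, the row that carries the symbol *Ciita* stood at the genomic place of *Rbpj*, which encodes the DNA-binding partner of Notch. Under its own symbol *Rbpj* had 100 and 143 counts after saline, but 0 and 1 after LPS, and 3 and 2 after LGK974 with LPS. When the endotoxemic and LGK974 counts were read from the row at the place of each gene and the control counts from the symbol (reassigned symbols), *Rbpj* went from 100 and 143 counts to 135 and 114, which is 0.52 on the log2 scale (SE 0.3, edgeR adjusted p = 0.182). The control counts were left with their symbol because of how the 444 matched genes behave across libraries. Their mean CPM after saline and after LPS had a Spearman correlation across genes of 0.068 on the same row and of 0.806 when the LPS level came from the row at the genomic place, beside 0.931 over all rows not out of order. Genes are not independent replicates, and these values are a description. *Ciita* then had 5 counts over the control libraries, 10 over those of the endotoxemic group and 8 over those of the LGK974 group, and it failed the filter on low counts. In CPM of the summed totals these are 0.19 (exact 95% Poisson interval 0.0618 to 0.444), 0.546 (0.262 to 1) and 0.284 (0.123 to 0.56), respectively. The endotoxemic to control ratio was 2.87 (exact 95% interval 0.894 to 10.7) and the LGK974 to endotoxemic ratio 0.52 (0.178 to 1.46), where the intervals cover counting error only. With this reading a change of *Ciita* was not detectable at this depth. The result depends on the control counts, since the control counts of the *Bmp6* row itself would give 10 counts against 1 and an endotoxemic to control ratio of 14.4 (exact 95% interval 2.04 to 623), a comparison added after the values were seen. *Ciita* also shares 329 exonic bases with *Dexi* on the opposite strand in the GENCODE annotation. The 6 other class II genes were unaffected by this step, since their rows are in order.

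**Figure D2:**
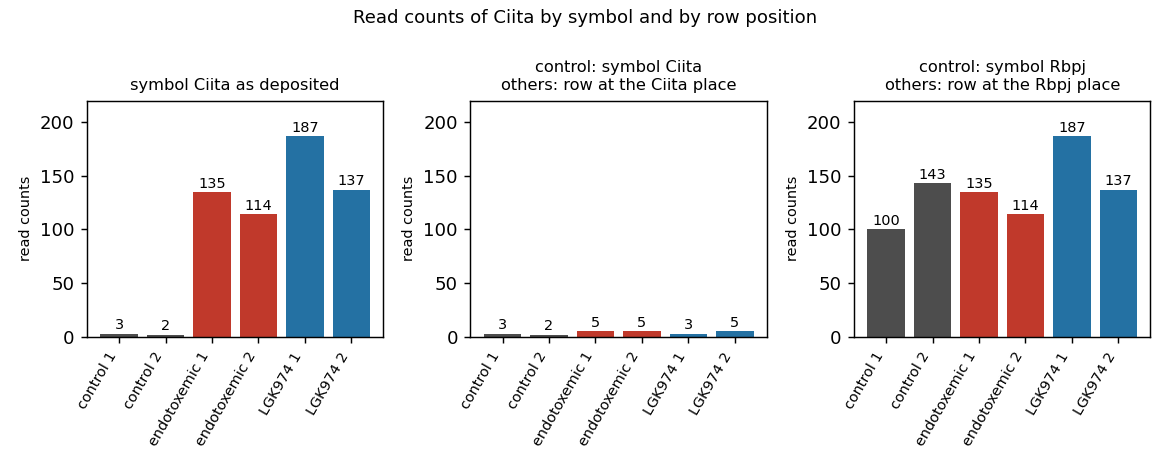
Read counts (vertical axis, from 0) per library for the symbol *Ciita* as deposited (left), and for *Ciita* (middle) and *Rbpj* (right) with control counts taken from the symbol and the other counts from the row at the genomic place of the gene. The rise from 3 and 2 to 135 and 114 counts under the symbol *Ciita* is not seen in the middle panel, where all libraries have 2 to 5 counts.

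The LGK974 group was then compared with the endotoxemic group, to ask whether class II transcripts differed with the inhibitor. *H2-Aa*, *H2-Ab1* and *H2-Eb1* were each lower in both LGK974 libraries than in both endotoxemic libraries, at 0.547-fold, 0.592-fold and 0.508-fold. For comparison, groups of 52.5% of all genes tested did not overlap. With edgeR 0 of the 6 genes on rows in order passed the adjusted threshold, which 2.82% of all genes passed as lower and 2.8% as higher, while 3 had an unadjusted p below 0.05, as did 22.9% of all genes. DESeq2 called 2 of 6 lower (*H2-Aa* and *H2-Ab1*) and limma-voom 0 of 6. The median log2 fold change was -0.72 over the 6 genes and 0.03 over all genes. The summed level was 120 and 118 CPM after LPS and 86 and 59.8 after LGK974 with LPS.

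The 3 classical chains lay close together, and none passed the adjusted threshold with edgeR as fitted here, although *H2-Aa* and *H2-Eb1* did without a filter on low counts (edgeR adjusted p = 0.0143 and 0.0203) and all 3 did with the identical libraries as separate samples. *H2-Aa* differed by -0.87 on the log2 scale (SE 0.26, edgeR adjusted p = 0.0866), *H2-Ab1* by -0.76 (SE 0.21, edgeR adjusted p = 0.0707) and *H2-Eb1* by -0.98 (SE 0.3, edgeR adjusted p = 0.0934). LGK974 library 2 was lower than library 1 for *H2-Aa* and *H2-Eb1*. Without LGK974 library 1, both passed, with log2 fold changes of -1.18 (edgeR adjusted p = 0.00662; 0.00662 to 0.385 over all alternatives) and -1.41 (edgeR adjusted p = 0.00531; 0.00531 to 0.347). Without LGK974 library 2 they were -0.61 and -0.64 and did not pass. *Cd74* had a log2 fold change of -0.43 with an interval from 0.455-fold to 1.21-fold, *H2-DMa* one of -0.14 (0.427-fold to 1.93-fold) and *H2-DMb1* one of -0.67 (0.211-fold to 1.87-fold). For these 3 the groups overlapped.

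Against the control group, the LGK974 group was lower in *H2-Aa* and *H2-Eb1*. *H2-Aa* differed by -1.11 on the log2 scale (SE 0.26, edgeR adjusted p = 0.01) and *H2-Eb1* by -1.13 (SE 0.3, edgeR adjusted p = 0.0176), or 0.464-fold and 0.457-fold, and DESeq2 and limma-voom called the same 2 genes. In this comparison 17.7% of all genes were called lower and 16.4% higher. The groups did not overlap in 4 of the 6 genes, all but *Cd74* and *H2-DMb1*, and in 68.1% of all genes. Each call depended on single control libraries. Without control library 1 the adjusted p was 0.0923 for *H2-Aa* and 0.0563 for *H2-Eb1*, and without control library 2 that of *H2-Eb1* was 0.114, with ranges over all alternatives from 0.000317 to 0.0923 and from 0.00103 to 0.114 (edgeR, DESeq2 and limma). *H2-Ab1* did not pass (log2 fold change -0.34, SE 0.21, edgeR adjusted p = 0.239), and *Cd74* was at 1-fold with an interval from 0.615-fold to 1.64-fold. The comparison shares the LGK974 libraries with the one before it and the control libraries with the first, so that the 3 are not independent.

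**Figure D3:**
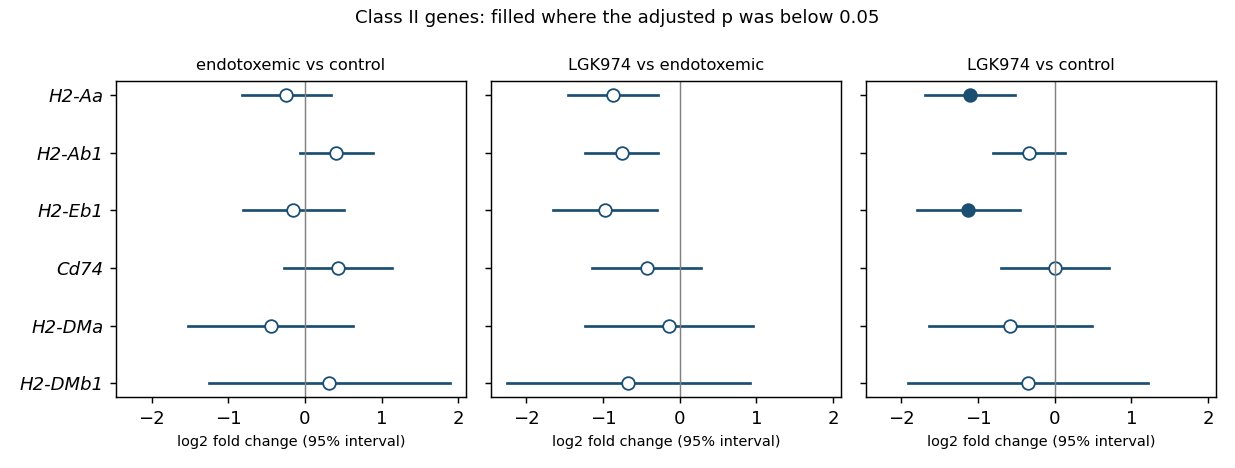
Log2 fold changes (points) with 95% intervals (lines) of the 6 class II genes on rows in genomic order in each of the 3 comparisons, with filled points where the edgeR adjusted p was below 0.05. The filled points are *H2-Aa* and *H2-Eb1* in the LGK974 group relative to the control group, and the intervals of *H2-DMb1* are the widest.

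Within the class II genes, *H2-Aa* and *H2-Eb1* followed each other most closely over the 6 libraries, with a Pearson correlation of log2(CPM + 1) of 0.92. That of *H2-Ab1* with *H2-Eb1* was 0.7 and that of *H2-Aa* with *Cd74* was 0.22. *H2-DMa* and *H2-DMb1*, which encode 1 dimer, had a correlation of -0.23. The libraries share groups, so that these values are a description. Among 12213 other tested rows in order, those most like the mean profile of the 6 genes were *Apol9b* (r = 0.981), *Eif1*, *Zcchc6*, *Zfp644*, *Rdh10*, *C630043F03Rik*, *Nedd4l* and *Lsm2* (r = 0.963), over 6 libraries. All 8 had lower mean CPM in the LGK974 group than in both other groups. This follows from how they were chosen, since the mean profile is itself lowest in the LGK974 group. *Apol9b*, for example, had 75.6 ± 0.943 CPM (SD, n = 2) after saline, 107 ± 6.46 after LPS and 36.8 ± 29.3 after LGK974 with LPS.

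Several of the signals that feed into *Ciita* were called where the class II genes on rows in order were not. *Ifng*, which encodes interferon-γ, had 0 and 0 counts after saline, 93 and 127 after LPS, and 2 and 0 after LGK974 with LPS. It was called higher in endotoxemia than after saline (edgeR adjusted p = 0.000148) and lower with LGK974 than in the endotoxemic group (edgeR adjusted p = 0.00399). Of the 8 interferon-γ input genes tested on rows in order, 6 rose in the endotoxemic group and 0 fell, with a median log2 fold change of 1.49. In this comparison 20.4% of all genes were called higher and 23% lower. *Ifngr1*, a receptor chain, and *Usf1*, a factor of a *Ciita* promoter, were not called (log2 fold changes 0.45 and -0.69). With LGK974, 4 of the 8 were lower than in the endotoxemic group and 4 were not called, with a median of -0.95. Of all genes, 2.82% were called lower and 2.8% higher there. *Irf1*, an interferon-induced factor that acts on a *Ciita* promoter, rose 9.6-fold in the endotoxemic group (edgeR adjusted p = 7.62e-05) and fell to 0.2-fold of it in the LGK974 group (edgeR adjusted p = 0.00668). *Irf8*, a factor of the myeloid lineage, rose 13.2-fold and was at 0.18-fold in the LGK974 group (edgeR adjusted p = 5.92e-05 and 0.00684). *Jak2*, the ninth listed gene, stood on a misplaced row, and its direction in the endotoxemic group turned with the reading, from -3.57 as deposited (SE 0.6, edgeR adjusted p = 0.00134) to 1.45 with reassigned symbols (SE 0.33, edgeR adjusted p = 0.00697) on the log2 scale.

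Genes known to restrain this pathway rose as well. All 5 tested on rows in order were higher in endotoxemia than after saline, with a median log2 fold change of 3.61. In this comparison 20.4% of all genes were called higher and 23% lower. *Socs1*, the feedback inhibitor of interferon-γ signaling, had 17 and 7 counts after saline, 1538 and 1005 after LPS, and 626 and 364 after LGK974 with LPS (log2 fold change 7.16, SE 0.56, edgeR adjusted p = 1.77e-05). *Prdm1*, which encodes a repressor of *Ciita*, rose by 4.71 on the log2 scale (SE 0.65, edgeR adjusted p = 0.000464), and *Socs3* and *Il10ra* rose 12.2-fold and 6.56-fold. In the LGK974 group relative to the endotoxemic group, *Socs1* and *Prdm1* fell, by log2 fold changes of -1.94 and -2.24 (edgeR adjusted p = 0.0284 and 0.0454). The other 3 were not called, and 2.82% of all genes were called lower. *Il10*, which encodes a cytokine that lowers class II at the cell surface, stood on a row out of order. Its log2 fold change in the endotoxemic group was 4.91 as deposited and 4.77 with reassigned symbols (edgeR adjusted p = 0.00144 and 0.00238). *Stat3*, which relays the interleukin-10 signal, was also on such a row and turned from -1.36 as deposited to 2.03 with reassigned symbols (edgeR adjusted p = 0.00382 and 0.00123).

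Of 7 class II promoter factors, *Rfx5*, *Rfxank* and *Nfyb* rose in the endotoxemic group and 4 did not pass the test. Of all genes, 20.4% were called higher and 23% lower there. *Rfx5*, the DNA-binding subunit of the RFX complex, had 7.29 ± 1.79 TMM-normalized CPM (SD, n = 2) after saline, 14.1 ± 3.5 after LPS and 7.25 ± 0.549 after LGK974 with LPS (edgeR adjusted p = 0.0359 for endotoxemic against control). *Rfxank*, its ankyrin subunit, rose 2.3-fold, and *Nfyb*, a histone-fold subunit of NF-Y, rose 1.79-fold (edgeR adjusted p = 0.00963 and 0.0052). *Nfyb* was lower with LGK974 than in the endotoxemic group, at 0.47-fold (edgeR adjusted p = 0.0142). Of the 6 lysosomal enzymes of class II loading, *Lgmn*, an asparaginyl endopeptidase, rose 1.57-fold in the endotoxemic group and *Ctsd*, cathepsin D, was at 0.617-fold (edgeR adjusted p = 0.0294 and 0.0109), so that 1 of 6 was called in each direction, beside 20.4% of all genes higher and 23% lower. *Ctss*, the protease that cuts the invariant chain in antigen-presenting cells, had 49.2 ± 2.28 CPM after saline, 61.6 ± 5.14 after LPS and 40.6 ± 0.594 after LGK974 with LPS. It did not pass for endotoxemic against control (edgeR adjusted p = 0.191). For LGK974 against endotoxemic it was at 0.66-fold and did not pass (edgeR adjusted p = 0.0971), and 0 of the 6 enzymes were called. Of the 4 further class II chains, *H2-Eb2*, *H2-DMb2* and *H2-Oa* had at most 3 counts in a library and *H2-Ob* had 0 to 18, and none was tested.

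**Figure D4:**
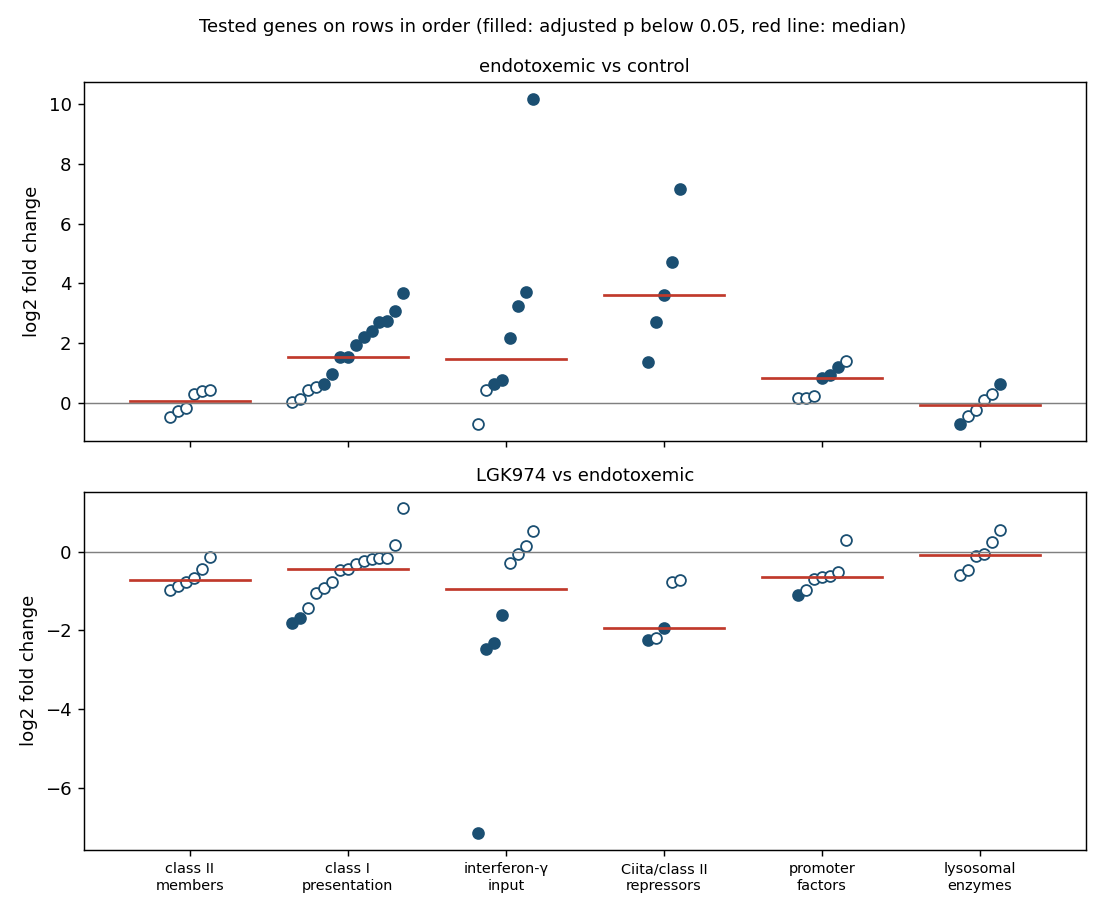
Log2 fold changes (vertical axis) of tested genes on rows in genomic order for the class II genes, class I presentation and 4 lists of the class II pathway, in endotoxemia relative to the control group (top) and the LGK974 group relative to the endotoxemic group (bottom). Filled points have an edgeR adjusted p below 0.05 and red lines are medians, which in the top panel are 0.09 for the class II genes and 1.56 for class I presentation.

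Class I presentation, which shows peptides from the cytosol on nearly all cells and has a transactivator of its own, *Nlrc5*, is the pathway most like it. Of 15 class I genes tested, 11 rose in the endotoxemic group and 0 fell, with a median log2 fold change of 1.56, beside 0 of 6 and 0.09 for class II. Of all genes tested, 20.4% were called higher and 23% lower. The difference between the lists was not tested. With LGK974, 2 of the 15 were lower than in the endotoxemic group and 13 were not called (median -0.45), beside 2.82% of all genes lower. Against the control group 6 of the 15 were higher and 9 were not called (median 0.87), beside 16.4% of all genes higher. *Nlrc5* had 3.41 ± 0.356 TMM-normalized CPM (SD, n = 2) after saline, 18.4 ± 2.29 after LPS and 5.23 ± 0.353 after LGK974 with LPS. It was called higher in the endotoxemic group (edgeR adjusted p = 0.000216) and lower with LGK974 than in the endotoxemic group (edgeR adjusted p = 0.011). *Tap1*, a subunit of the peptide transporter that lies between *H2-DMb1* and *H2-Ab1* on chromosome 17, rose 12.7-fold (edgeR adjusted p = 2.57e-05), while the class II genes on both sides of it were not called.

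Markers of the cells that carry class II were measured beside these results. For the marker counts below, 20.4% of all genes were called higher and 23% lower in endotoxemia relative to the control group. For LGK974, these shares were 2.8% and 2.82% against the endotoxemic group and 16.4% and 17.7% against the control group. B cell markers were low in all libraries, with 0 to 18 counts of *Cd79b*, and *Pax5* was at 0. Summed over 9 markers they had 4.14 to 6.86 TMM-normalized CPM after saline or LPS and 0.754 and 1.56 after LGK974 with LPS. Of 4 tested B cell markers, *Cd22* was lower with LGK974 than in the endotoxemic group (edgeR adjusted p = 0.0446) and 3 were not called. Against saline, *Cd22* was also lower in the LGK974 group (0.0655-fold, edgeR adjusted p = 0.0288) and 3 were not called, with a median log2 fold change of -3.04 over the 4. Markers of conventional dendritic cells on 8 rows in order summed to 7.61 and 8.56 CPM after saline, 2.94 and 4.05 after LPS, and 7.02 and 5.75 after LGK974 with LPS. Of the 3 tested, *Xcr1*, a receptor of cross-presenting dendritic cells, fell to 0.19-fold in the endotoxemic group (edgeR adjusted p = 0.048), and *Zbtb46* and *Wdfy4* were not called (1.3-fold and 0.415-fold). Against saline, the LGK974 group was lower in *Xcr1* (0.164-fold) and higher in *Zbtb46* (3.7-fold) (edgeR adjusted p = 0.0371 and 0.0463), and *Wdfy4* was not called (0.904-fold). *Zbtb46*, with 3.62 and 2.23 CPM after LGK974 with LPS, and *Wdfy4*, with 2.04 and 2.91, made up most of the dendritic cell sum there. Kupffer cell markers on 9 rows in order summed to 246 and 256 CPM after saline, 233 and 233 after LPS, and 143 and 179 after LGK974 with LPS. Without *Marco*, a scavenger receptor that rose 13-fold in endotoxemia, the other 8 summed to 239 and 250 CPM after saline, 136 and 159 after LPS, and 81.8 and 82.2 after LGK974 with LPS. Of the 9, *Marco* rose and 5 fell in endotoxemia relative to the control group. In the LGK974 group 1 of the 9 was lower than in the endotoxemic group, with a median log2 fold change of -0.77 and a range of -1.3 to -0.11, and against the control group 6 were lower and *Marco* was higher, with a median of -1.26. Markers of sinusoidal endothelial cells on 8 rows in order summed to 268 and 277 CPM after saline, 416 and 414 after LPS, and 446 and 569 after LGK974 with LPS. The rise of this sum is that of *Lyve1*, which had 49.4 and 35.7, 360 and 336, and 399 and 498 CPM, respectively. In endotoxemia relative to the control group the median log2 fold change of the 8 was -1.19. *Lyve1* rose and 4 of these 8 fell in endotoxemia, against saline the LGK974 group was higher in *Lyve1* and lower in 5 (median log2 fold change -1.25), and *Clec4g* was lower with LGK974 than in the endotoxemic group (0.219-fold, edgeR adjusted p = 0.0163). Of 7 stellate cell markers, 3 were lower and 1 was higher in the LGK974 group against saline, and of 5 tested cholangiocyte markers 0 were lower and 1 was higher, beside 17.7% of all genes lower and 16.4% higher. The part of these cells in the class II levels was not tested. Monocyte markers on 4 rows summed to 12.2 and 14.4 CPM in the control group and 133 to 194 CPM in the other libraries. Most of this was *Plac8* (11.4 and 11.8 CPM after saline, 180 and 138 after LPS, 134 and 118 after LGK974 with LPS). In endotoxemia *Plac8* and *Ly6c2* were called higher, *F13a1* and *Spn* were not called, and 4 further listed markers stood on rows out of order. Neutrophil markers on 4 rows summed to 1.76 and 2.16 CPM in the control group and 64.5 to 107 in the other libraries. T and NK cell markers on 9 rows, with *Ncr1* at 0, summed to 2.77 to 10.9 in all libraries. The liver label held, with hepatocyte markers on 10 rows summing to between 81700 and 141000 CPM. Of these 10, 6 were lower and 1 was higher in endotoxemia than after saline (median log2 fold change -0.97), edgeR called 0 between the LGK974 and endotoxemic groups (1 at an unadjusted p below 0.05, median 0), and against saline 4 were lower and 1 was higher with LGK974 (median -0.45).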

How the data were processed

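QuantSeq libraries (Lexogen) of liver RNA sample transcripts at their 3′ ends, and a longer gene gains no counts from its length. The authors deposited raw counts of reads per gene symbol. Submitters' processing notes name Bowtie2, edgeR and mm10 without roles, and the counting program and strand setting are not given in the sources used here. Groups follow the labelled agents, and identical libraries were counted once.

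Tests on these counts used edgeR 4.0.16 in R 4.3.3 (filterByExpr, TMM, quasi-likelihood F test, all 3 groups in 1 model, Benjamini-Hochberg adjustment over all 12701 genes tested, threshold 0.05). CPM are TMM-normalized. The SE and 95% interval of a log2 fold change derive from that test. Alternatives included DESeq2 1.42.0 and limma 3.58.1 (voom). Row order was compared with RefSeq positions on GRCm38. A row out of order was matched (444 of 579) where its gap held as many such rows as genes. Scripts were tested on simulated data.

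The genes and lists were chosen with earlier results of these data known. Named genes are the 7 class II genes, at most 4 called genes per pathway list and comparison with the largest change, *Ifng*, *Irf1*, *Rfx5*, *Socs1* and *Il10*, and the 8 genes with the most similar profile. 1 further gene of this rule is not reported here. Other genes, such as *Rbpj*, *Jak2*, *Ctss* and the named markers and class I genes, were chosen after their values were seen. The lists are those of class II chains, lysosomal enzymes, promoter factors, interferon-γ input, repressors, co-stimulatory ligands, class I presentation and cell type markers.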

Additional observations from a re-analysis of the deposited data

How the results depend on the processing

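Of the class II genes on rows in order, *Cd74*, *H2-DMa* and *H2-DMb1* were called under none of the alternatives run in any comparison, with 17 alternatives for each. Under the symbol as deposited, *Ciita* accounts for the 1 class II gene called higher in the endotoxemic and in the LGK974 group relative to the control group. That count was 0 in both comparisons with at least 10 counts in every library, with rows out of order left out and with reassigned symbols, and it was 2 in the endotoxemic group with identical libraries as separate samples. For the LGK974 group relative to the endotoxemic group, the count of class II genes called lower was 0, but 2 without a filter on low counts, 2 with DESeq2, 3 with identical libraries as separate samples, and 0 to 2 when each library was left out in turn. Against the control group it was 2, and 0 to 2 with each library left out.

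In the LGK974 group relative to the endotoxemic group, 356 genes were called higher and 358 lower. These numbers were 881 and 824 without a filter, 604 and 627 with DESeq2, 1711 and 1548 with identical libraries as separate samples, 107 and 162 with only the 2 groups compared, and 23 to 1175 and 26 to 1067 with each library left out. Leaving out each library gave 1517 to 3196 higher and 1801 to 3523 lower genes for endotoxemia relative to the control group, where 2595 and 2918 were called, and 1041 to 2608 and 1331 to 2761 for the LGK974 group relative to the control group, where 2081 and 2247 were called. The cause was not tested. A group with 1 library left is assumed to vary like the other groups.

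Same-numbered libraries had correlations of their deviations of 0.214 (endotoxemic and control), 0.064 (LGK974 and endotoxemic) and -0.018 (LGK974 and control). With 2 libraries in a group, these values cannot settle whether same-numbered libraries share more than a number. With the replicate number as a block, 1 class II gene, *H2-Aa*, was called lower with LGK974 than in the endotoxemic group (log2 fold change -0.88, edgeR adjusted p = 0.0454, with 0.00662 to 0.385 over all alternatives). Depth limits the reading of *Ciita* with reassigned symbols, where it had 2 to 5 counts in a library. The count ratio of *Ciita* with control counts from the row at its place, an alternative chosen after seeing the data, was 14.4 for endotoxemia against control and 7.47 for LGK974 against control, beside 2.87 and 1.49.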

Other observations

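Of the listed ligands that act beside class II on T cells, 4 were tested on rows in order, and 2 of them rose in endotoxemia and 0 fell. Of all genes, 20.4% were called higher and 23% lower in this comparison. *Cd274*, which encodes the inhibitory ligand PD-L1, had 20 and 33 counts after saline, 639 and 581 after LPS, and 552 and 243 after LGK974 with LPS. It was called higher in the endotoxemic group (log2 fold change 5.02, SE 0.46, edgeR adjusted p = 3.99e-05) and in the LGK974 group (3.84, SE 0.45, edgeR adjusted p = 0.000221) than in the control group. *Cd86*, a co-stimulatory ligand of CD28, rose 3.59-fold in the endotoxemic group (edgeR adjusted p = 0.0207). *Cd80*, its relative, had at most 16 counts in a library and did not pass. *Pdcd1lg2* had 0 to 2 counts.

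*Cd40*, the receptor through which T cells activate antigen-presenting cells, had a misplaced row, not between its genomic neighbours. Under its symbol as deposited it did not pass the test (edgeR adjusted p = 0.222 for endotoxemic against control). Where *Cd40* should stand is a row named *Npff*, which had 224 and 281 counts after LPS and 83 and 13 after LGK974 with LPS, beside 2 and 8 counts of *Cd40* in the control libraries. With reassigned symbols, its log2 fold change was 6.13 in endotoxemia relative to the control group and -2.94 in the LGK974 group relative to the endotoxemic group (edgeR adjusted p = 0.000541 and 0.0373). *Cd40* is described here because of the place of its row, which was seen with its values.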
